A study of Mus musculus with 6 samples.

Results

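The probes described here are those that the array names only by a stretch of the mouse genome and a strand letter, F or R, the form used for long intergenic noncoding RNA (lincRNA) regions. Every non-control probe with such a name was taken, except the 3 probes of 1 region on chromosome 11, R strand, which are not reported here. This gave 4446 of 56605 probes. They cover 4060 region strands, a region strand being 1 interval on 1 strand, and 3229 intervals. Intervals are given in mm9, the build named in the file headers, exactly as the array names them. F and R are read here as the forward and the reverse strand, and a probe is cited by its array identifier.

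LincRNAs are transcripts without a long open reading frame that are made from their own promoters between protein-coding genes. Many such regions were first mapped as stretches of active chromatin, with a mark of promoters at one end and a mark of transcription along the body, and only some were later given a gene name. They are usually less abundant and more restricted to a tissue than messenger RNAs. Some act in the nucleus on chromatin or on neighbouring genes, and for most no function is known. The array alone does not tell a transcript of the region from a long tail or an intron of a nearby gene.

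RNA came from whole kidneys of C57BL/6J mice killed at 32 weeks of age. Of the 6 arrays, 3 were labelled WT and 3 Pck1-CKO, 1 array per sample. Pck1-CKO mice were Pck1 flox/flox and carried a γGT-Cre transgene, whose promoter directs Cre to the renal proximal tubule, so that Pck1, the cytosolic enzyme that makes phosphoenolpyruvate in gluconeogenesis, is to be lost there. The WT controls were littermates of the same age and sex. According to the labels' protocol, controls of 3 kinds came from the breeding. Some were homozygous for the floxed allele without Cre, some heterozygous (flox/+), and some heterozygous with γGT-Cre. Which of these each WT sample was is not stated, so WT may include floxed alleles or Cre. The comparison asks which transcripts differ in the kidney when Pck1 is deleted in the proximal tubule. The labels do not tie arrays to individual animals. The p-values below therefore speak only of the spread among the samples at hand, which may be technical.

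Signals are given as log2 of the processed signal minus the 75th percentile of the array, so 0 is a probe at that percentile, and a change is Pck1-CKO minus WT with the standard error of the fit. The 75th percentile lay between 529 and 583 signal units, and 37116 to 38707 of all probes were well above background on an array. All 6 of the proximal tubule markers were well above background on all arrays. The Pck1 probe had 6.29, 6.32 and 5.63 in WT, set against 6.44, 6.60 and 6.90 in Pck1-CKO. The 3 Pck1-CKO values were the highest, and the change of 0.56 ± 0.22 did not pass (adjusted p = 0.174). Where this probe lies with respect to the floxed exons is not stated, so it checks nothing about the labels. Of 8 adipose markers, 7 were well above background on all 6 arrays, and 5 were higher in Pck1-CKO by the same test as below. Their summed level was 4.05, 5.17 and 5.09 in WT, beside 6.94, 6.85 and 7.38 in Pck1-CKO. The summed podocyte markers stood at 4.55 to 4.68 in WT, set against 4.26 to 4.39 in Pck1-CKO, with 0 of 3 genes past the test. Those of the distal convoluted tubule stood at 4.17 to 4.32 and 3.76 to 3.92, with 1 of 3 lower. Those of the thick ascending limb stood at 8.49 to 8.58 and 8.65 to 8.73, with 0 of 3 past the test. Those of the collecting duct stood at 4.47 to 4.58 and 4.69 to 4.71, with Aqp2 higher and Slc4a1 lower among 5. Those of T and B cells stood at 0.45 to 0.47 and 0.088 to 0.26, with Cd79b lower among 3. The part of these tissue markers in the results below was not tested. In whole-kidney RNA, fewer cells of a type and less RNA per cell cannot be told apart. WT arrays lay in slide row 1 and Pck1-CKO arrays in slide row 2 of the same slide, with samples 1, 2 and 3 of each in columns 1, 2 and 3. Row and genotype therefore cannot be told apart.

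Most lincRNA region probes gave signal in these kidneys. On a single array 2485 (WT 1) to 2672 (WT 3) were well above background. Of the 4446 probes, 2290 (51.5%) were well above background on all 6 arrays and 1469 (33.0%) on none. The shares for all other probes were 63.8% and 27.2%. The 2624 member probes well above background on at least 3 arrays were tested, from 2449 region strands and 2067 intervals. Both strands of an interval carried probes in 831 cases. Both strands were tested in 382 of these, 1 strand in 315 and neither in 134. Forward and reverse probes were tested in like shares, 57.6% and 60.5%. The test covers these detected regions and says nothing of the rest.

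Among the tested lincRNA region probes, decreases in Pck1-CKO outnumbered increases. Lower signal was called for 99 probes and higher signal for 18, by limma with a Benjamini-Hochberg adjusted p under 0.05 over all 38365 probes tested. That is 3.77% and 0.686% of the members. Over all tested probes 2.56% were called lower and 1.73% higher. Well above background on all 6 arrays were 94 of the 99 and 15 of the 18. The 99 decreases came from 98 region strands and the 18 increases from 18. Most were small, with a median size of 0.55 on the log2 scale among the decreases and 0.56 among the increases. A change of at least 2-fold was called for 9 members that were lower and 3 that were higher, against a background of 0.25% and 0.305% of all probes. Of these, 1 of the 9 and 2 of the 3 were above background in only one group and have a bound in place of a fold, so these counts are not read against those shares. In all 117 the 3 arrays of one group lay above the 3 of the other. Without any overlap the groups were separated in 22.7% of the members toward lower and 6.52% toward higher signal, where the background over all probes was 18.7% and 16.2%.

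The total number of calls fell whenever 1 array was left out, among members and among other probes. Without WT 1, WT 2 or Pck1-CKO 2, 0 members passed in limma. An unadjusted p under 0.05 was then found for 138 higher and 432 lower, 119 and 466, and 89 and 401. Without Pck1-CKO 1, 0 higher and 2 lower members passed, of 116 and 513 at an unadjusted p under 0.05. Shares at that unadjusted level were not taken over all probes, so these counts are not read as a result about the members. The adjusted p of the 117 probes then ran from 0.0534 to 0.140 without WT 1, 0.0614 to 0.149 without WT 2 and 0.0539 to 0.170 without Pck1-CKO 2. Without WT 3 the count was 7 higher and 50 lower, and without Pck1-CKO 3 it was 16 and 85. All 117 kept their direction each time, which had to be so, since their groups did not overlap and the arrays were not rescaled. The other probes behaved alike, with 27 higher and 6 lower of all probes without WT 1, and 0 of either without WT 2. Without Pck1-CKO 1, 11 of all probes were higher and 11 lower, and without Pck1-CKO 2, 1 and 2. Of all probes, 411 were higher and 612 lower without WT 3, and 631 and 982 without Pck1-CKO 3. With all 6 arrays these counts were 663 and 984.

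With the scaling used for the test, dim probes of all kinds leaned toward lower values in Pck1-CKO, and the lincRNA region probes are dim. Their median signal was -3.18, against -1.10 for the other tested probes, and 76.8% of them fell in the lower 4 of 8 equally filled bands of signal. In the dimmest band the median change was -0.17 for 602 members and -0.14 for 4194 other probes. In the second band it was -0.16 and -0.10, and in the fourth -0.087 and -0.048. From the sixth band up the other probes had a slightly positive median, 0.039 in the seventh, where the 109 members had -0.034. The members thus lay below the other probes in each of the 8 bands, by 0.029 to 0.083. With this scaling the lowest medians of both sets were in the dimmest bands. The difference between members and other probes was not tested. Over all tested members the median change was -0.11, beside -0.021 over all probes tested.

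**Figure D1:**
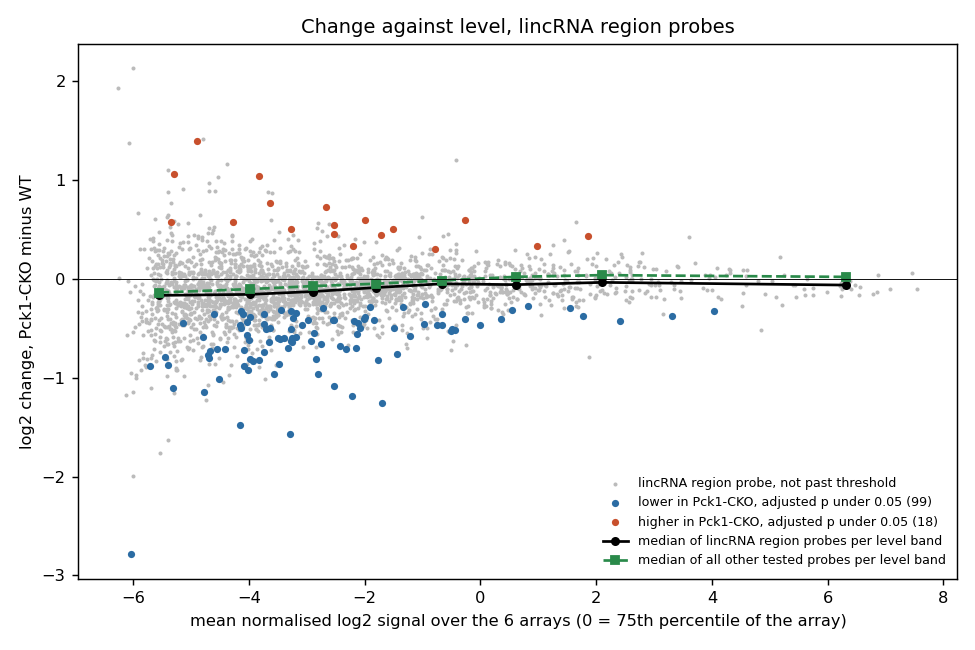
Each point is a tested lincRNA region probe, with its mean normalised log2 signal over the 6 arrays on the x axis and its log2 change (Pck1-CKO minus WT) on the y axis. Blue and red points are the 99 lower and 18 higher probes past the threshold, and the lines join the medians of the members (black) and of all other tested probes (green) in 8 signal bands. Both are lowest in the dimmest bands. The members' line is below 0 in all 8 bands, and that of the other probes only toward dim signals.

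The balance of the calls moved with the scaling of the arrays. With the 75th percentile, 15.4% of the called members were higher. Quantile normalization gave 26 higher and 62 lower members (29.5% higher), against 1.71% and 1.78% of all probes. Scaling on the median gave 52 and 74 (41.3% higher), with 4.37% of all probes called higher and 1.78% lower. Cyclic loess, an alternative chosen after seeing the data, which removes a trend of the change with signal, gave 26 and 54 (32.5% higher), against 1.78% and 1.62% of all probes. The members' median change was then -0.043, while that of the other probes was 0.0064. Decreases remained the larger group in each of these. Of the 117 probes called first, 78 passed after quantile normalization, 90 after median scaling and 70 after cyclic loess. All 117 kept the same direction. The lean of dim probes also moved with the scaling. In the dimmest band the other probes had a median change of -0.0027 after cyclic loess and 0.0034 after quantile normalization. The members had -0.032 and -0.024 there, and -0.089 and -0.084 in the brightest band. The members stayed below the other probes in every band. After background correction with normexp, described below, the dimmest band had -0.069 for the other probes and -0.077 for the members.

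The shift was uneven among the arrays. For each probe the deviation of an array from the mean of all 6 was taken. The median deviation of the members was 0.10 on WT 1, 0.034 on WT 2 and 0.030 on WT 3, and -0.012, -0.056 and -0.063 on Pck1-CKO 1 to 3. The groups did not overlap, and WT 1 stood farthest out. For the other probes the medians stayed between -0.0055 and 0.0093. WT 1 was the highest of the 6 arrays for 32.9% of the members. After cyclic loess the member medians were 0.051, 0.0037 and 0.017 in WT, beside 0.0055, -0.018 and -0.032 in Pck1-CKO, so that WT 2 fell just under Pck1-CKO 1 and the groups overlapped.

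**Figure D2:**
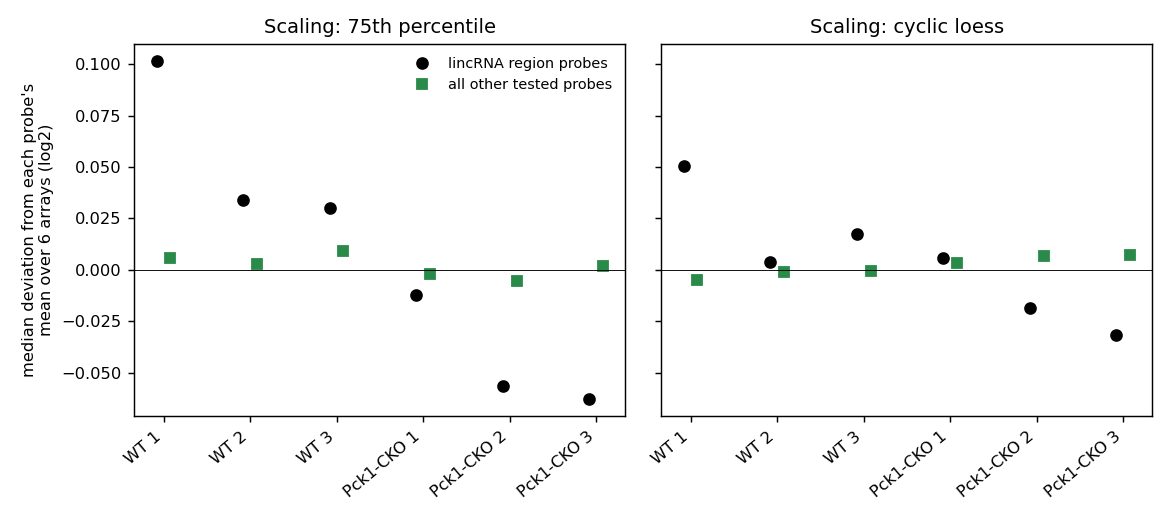
Median deviation of an array from each probe's mean over the 6 arrays (y axis, log2) for the 2624 lincRNA region probes (circles) and the other tested probes (squares), by array on the x axis, after scaling on the 75th percentile (left) and after cyclic loess (right). WT 1 stands highest for the lincRNA region probes in both panels, and the 2 groups are separated only on the left.

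The 12 called decreases with the largest fitted change came from chromosomes 18, 5, 1, 12, 13, 6, X, 11 and 17. The one with the largest fitted value, at the start of chromosome 18, has only a bound and so no rank among them. The reverse strand of chr5:149751979-149808240 (A_30_P01018012) had -2.73, -2.54 and -2.25 in WT, set against -4.38, -4.14 and -3.71 in Pck1-CKO. All WT arrays were above all Pck1-CKO arrays by more than the spread within either group. The change was -1.57 ± 0.20 (SE, n = 3 per group, adjusted p = 0.0296), 2.97-fold lower. On the forward strand of the same interval, the change was -0.21 and did not pass (adjusted p = 0.323).

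The forward strand of chr12:33606225-33638225 (A_30_P01027244) had the lowest p of any member. Its signal was -1.003, -1.002 and -1.195 in WT, beside -2.34, -2.23 and -2.40 in Pck1-CKO. The groups were far apart beside the small spread within each. That made a change of -1.26 ± 0.079 (adjusted p = 0.00958), 2.39-fold lower. Its reverse strand changed by -0.24 and did not pass (adjusted p = 0.577). The reverse strand of chr13:62734450-62785325 (A_30_P01030860) was similar in size. It had -1.63, -1.53 and -1.71 in WT, set against -2.96, -2.83 and -2.63 in Pck1-CKO, a change of -1.18 ± 0.10 (adjusted p = 0.0166).

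A probe at the start of the chromosome 18 assembly, on the forward strand of chr18:3003075-3016150 (A_30_P01019700), was bright enough to measure only in WT. Its signal was -4.88, -4.60 and -4.43 there, and -6.26, -7.93 and -8.09 in Pck1-CKO, where no array had it well above background. WT was at least 2.28-fold higher. The adjusted p of 0.0460 is that of the fitted change, which did not pass with quantile normalization (0.0501) or cyclic loess (0.0515). The probe entered the test only through WT, so this p is not read as support. The bound sets the WT mean against the mean, per Pck1-CKO array, of the higher of the probe's own signal and the lowest signal of any detected probe. The probe on the reverse strand of the interval had -1.04, -1.07 and -0.67 in WT, beside -1.22, -1.24 and -2.40 in Pck1-CKO, and its change of -0.70 did not pass (adjusted p = 0.248).

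The remaining large decreases lay between -0.92 and -1.48. A short interval, the forward strand of chr1:133839368-133839762 (A_30_P01024020), had -2.23, -2.12 and -1.64 in WT, set against -3.10, -3.17 and -2.96 in Pck1-CKO. The change was -1.08 ± 0.16 (adjusted p = 0.0389). Beside it, the forward strand of chr1:133841295-133841645 (A_30_P01020482) changed by -1.04 ± 0.24 and did not pass (adjusted p = 0.0687), although its groups did not overlap either, at -4.42, -3.78 and -3.60 in WT, beside -4.99, -4.72 and -5.21 in Pck1-CKO. On the X chromosome, the forward strand of chrX:132445535-132448486 (A_30_P01018690) had -4.07, -3.94 and -4.03 in WT, set against -4.87, -5.02 and -5.20 in Pck1-CKO, with a change of -1.01 ± 0.094 (adjusted p = 0.0206). The others were on chr18:36469925-36470507 forward (-1.15 ± 0.14), chr6:39248007-39248490 reverse (-1.11 ± 0.20), chr1:85304494-85305390 reverse (-0.97 ± 0.12), chr11:97457180-97487074 forward (-0.96 ± 0.13) and chr17:95150800-95180650 reverse (-0.92 ± 0.14). Only 1 of 3 Pck1-CKO arrays had the chr6:39248007-39248490 probe well above background. After background correction with normexp, whose offset compresses low signals, the changes of the 11 decreases other than that at the start of chromosome 18 were smaller, from -0.30 to -0.96. The one on chr5 was then -0.89, that on chr12 -0.96 and that on chrX -0.39. That at the start of chromosome 18 changed by -0.48 (adjusted p = 0.00333). This is a smaller change than its bound, which holds for the processed signal only.

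**Figure D3:**
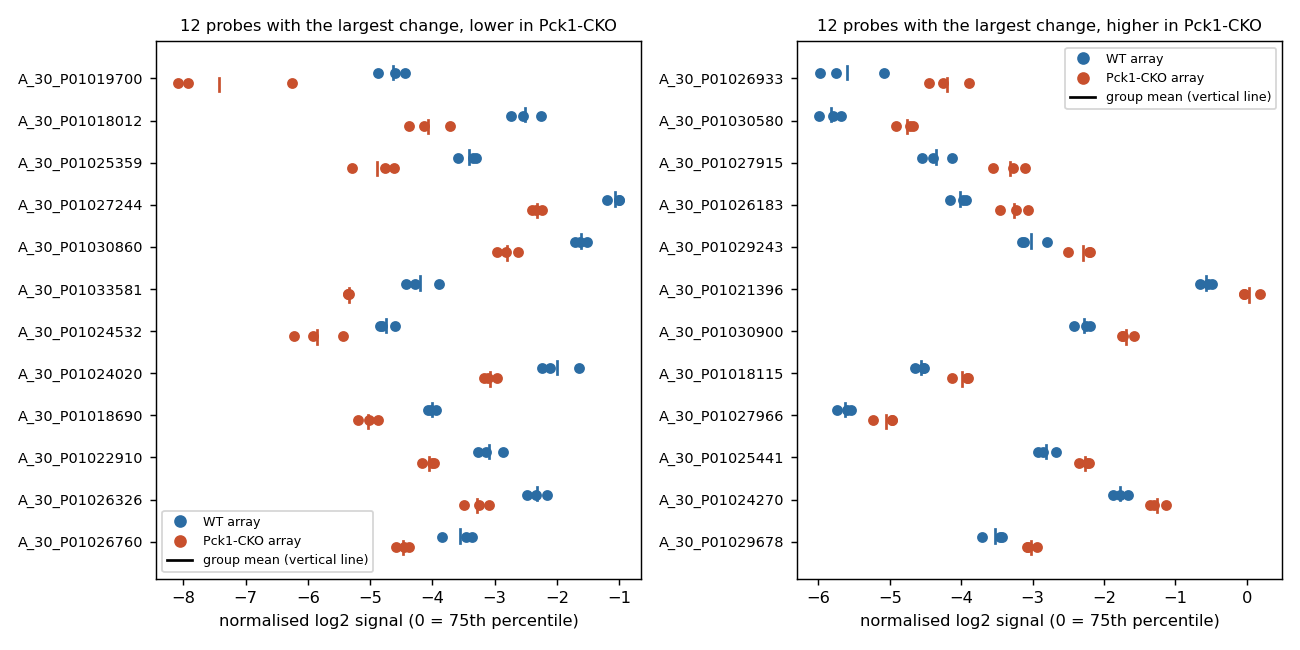
Normalised log2 signal (x axis, 0 is the 75th percentile of an array) of the 12 region strands with the largest fitted change among those called in each direction, 1 probe per row, named by its array identifier. Each point is 1 array, blue for WT and red for Pck1-CKO, and short vertical lines are group means. In each row the 3 arrays of one group lie above the 3 of the other.

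Increases were fewer than decreases. The largest with signal on all arrays was on the forward strand of chr19:54011403-54018978 (A_30_P01027915), with -4.13, -4.40 and -4.54 in WT, beside -3.55, -3.10 and -3.28 in Pck1-CKO. Every Pck1-CKO array was above every WT array. The change was 1.05 ± 0.15 (adjusted p = 0.0366), 2.07-fold higher. A second probe of the same strand and interval did not move with it. A_30_P01025815 had -4.36, -4.11 and -4.45 in WT, set against -4.44, -4.56 and -4.68 in Pck1-CKO, a change of -0.25 ± 0.11 (adjusted p = 0.206).

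The forward strand of chrX:75813213-75829323 (A_30_P01026183) had -3.97, -4.16 and -3.94 in WT, beside -3.46, -3.24 and -3.07 in Pck1-CKO, a change of 0.77 ± 0.12 (adjusted p = 0.0391). The reverse strand of chr12:21548850-21568550 (A_30_P01029243) rose by 0.73 ± 0.13 (adjusted p = 0.0468). Its second probe, A_30_P01031148, went the other way by -0.33 ± 0.068 and did not pass (adjusted p = 0.0555). Agreement within a region was better on the reverse strand of chr16:86770170-86874921. There A_30_P01021396 had -0.66, -0.55 and -0.49 in WT, set against -0.045, -0.040 and 0.19 in Pck1-CKO, a change of 0.60 ± 0.086 (adjusted p = 0.0355). The second probe, A_30_P01028418, had 1.13, 1.22 and 1.39 in WT, beside 1.44, 1.57 and 1.92 in Pck1-CKO, a change of 0.39 ± 0.14 that did not pass (adjusted p = 0.149).

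Further increases among the 12 largest were on chr18:5808025-5818625 reverse (0.60 ± 0.083), chr18:36449530-36456800 reverse (0.58 ± 0.081), chr2:150072436-150074859 forward (0.55 ± 0.083), chr17:15357376-15385701 forward (0.51 ± 0.088) and chrX:135880775-135891525 reverse (0.50 ± 0.093). They were modest, and all 5 were well above background on all 6 arrays. With normexp the 9 increases among the 12 that were above background in both groups ran from 0.22 to 0.54. Those on chr18:36449530-36456800 and chrX:135880775-135891525 then did not pass in limma (adjusted p = 0.0668 and 0.103). Outside the 12 largest, and chosen after its values were seen, is an interval whose strands had changes of the same sign. The forward strand of chr6:54591416-54597566 (A_30_P01019271) had a small and tight increase. It had 1.63, 1.66 and 1.64 in WT, set against 2.10, 2.14 and 1.999 in Pck1-CKO, a change of 0.44 ± 0.054 (adjusted p = 0.0277). Its reverse strand changed by 0.28 ± 0.056 (adjusted p = 0.0544).

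Some regions were measurable in only one genotype. Signal was well above background on all Pck1-CKO arrays and on no WT array for 7 member probes. Of these, 3 passed. All 7 entered the test only through Pck1-CKO, so their p-values are not read as support. Those p-values belong to the fitted changes and not to the bounds. Signal on the reverse strand of chr10:8662761-8665101 (A_30_P01026933) was -5.08, -5.98 and -5.75 in WT, beside -4.45, -4.26 and -3.89 in Pck1-CKO, at least 2.54-fold higher (adjusted p = 0.0493). The forward strand of chr18:78190463-78235438 (A_30_P01030580) had -5.80, -5.99 and -5.69 against -4.67, -4.91 and -4.72, at least 1.84-fold higher (adjusted p = 0.0222). The remaining one, on chr1:195327945-195336595 forward, was at least 1.45-fold higher (adjusted p = 0.0423). With normexp these 3 changed by 0.22, 0.18 and 0.050 and did not pass (adjusted p = 0.194, 0.113 and 0.580). These changes are smaller than the bounds, which hold for the processed signal only. Those that did not pass included chr2:136327645-136341251 forward, at least 1.68-fold higher (adjusted p = 0.0548), and chr13:62364360-62381775 forward, at least 1.32-fold higher (adjusted p = 0.0578). The other two, chr4:3745750-3756200 forward and chrX:133315875-133338600 forward, were at least 1.45-fold and 1.23-fold higher (adjusted p = 0.0607 and 0.0923).

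The reverse pattern, WT on all arrays and Pck1-CKO on none, was seen for 6 member probes, of which 2 passed. One is the chromosome 18 probe described above. The other, A_30_P01020522 on the reverse strand of chr14:65720392-65769859, had -5.31, -5.14 and -5.38 in WT, set against -6.16, -6.13 and -6.17 in Pck1-CKO, and WT was at least 1.47-fold higher (adjusted p = 0.0166). With normexp its change was -0.11 and did not pass (adjusted p = 0.197). Among those that did not pass, WT was at least 1.52-fold higher on chr18:83530624-83534486 reverse, 1.39-fold on chrX:47893703-47996700 forward and 1.29-fold on chr1:51753968-51803787 reverse (adjusted p = 0.0552, 0.0670 and 0.0576). The last of the 6 is given with its neighbours below. Probes that enter the test through a single group had to differ to some degree. These counts are therefore not set against the background, and the p-values are not read as support.

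Probes of the same region strand had more similar changes than those of opposite strands, as a description without a test. Of the 2449 tested region strands, 151 held at least 2 tested probes. Over their 200 pairs the changes had r = 0.37 and the same sign in 72.5%. Across opposite strands of an interval, the r over 382 pairs was 0.074 and the sign was the same in 58.6%. Since 70.1% of all member changes were negative, a same-sign share of 58.1% follows from that share alone. Different regions within 10 kb of each other on the same strand had r = 0.25 over 815 pairs, and those on opposite strands 0.035 over 611. Pairs of probes of other array names, mostly of 1 transcript each, had r = 0.60 over 7427 pairs. These are descriptions across probes of the same 6 arrays, in which dim probes carry more noise, and pairs can share a probe or lie on overlapping intervals (1740 of the 3229 intervals overlap another).

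**Figure D4:**
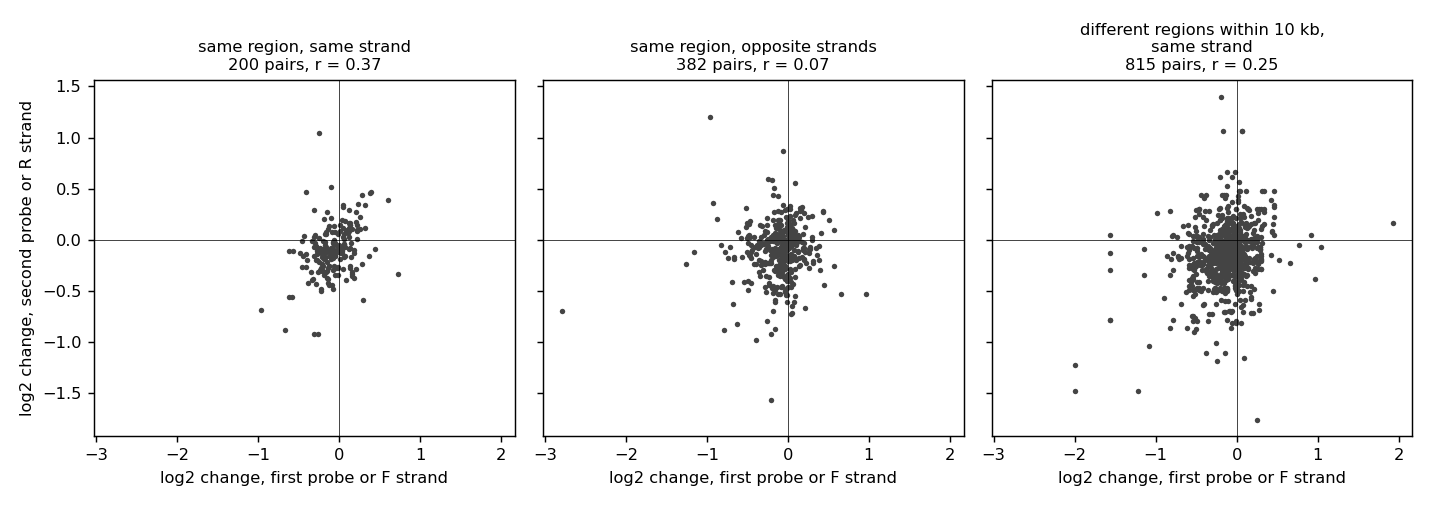
Log2 change (Pck1-CKO minus WT) of one probe against that of its partner, for probes of the same region and strand (left, 200 pairs), for the mean of each strand of an interval (middle, 382 pairs, forward strand on the x axis) and for different regions within 10 kb on the same strand (right, 815 pairs). The left cloud leans along the diagonal, the right one less so, and the middle one hardly.

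Calls rarely came in twos within a region. Among the 11 called region strands with more than 1 tested probe, all probes had the same sign in 6, and 2 probes passed in 1. That one is the reverse strand of chr14:65720392-65769859. Beside the probe given above, A_30_P01020171 had -2.45, -2.43 and -2.41 in WT, beside -2.87, -3.31 and -3.10 in Pck1-CKO, a change of -0.66 ± 0.11 (adjusted p = 0.0425). In 32 intervals with a call both strands were tested. Both strands had the same sign in 23 and passed in 0. Most calls were decreases and 70.1% of all member changes were negative, so the 23 are not read as agreement between strands. An example of like direction is chr1:183951156-183986156. Its reverse strand (A_30_P01032207) fell by 0.88 (adjusted p = 0.0253), and its forward strand (A_30_P01018083) had 2.41, 2.36 and 2.04 in WT, set against 1.85, 1.49 and 1.095 in Pck1-CKO, a change of -0.79 ± 0.21 that did not pass (adjusted p = 0.0857).

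Neighbouring regions were joined into loci where less than 50 kb lay between them, a rule set after the values were seen. The tested probes fell into 1245 loci. Of these 112 held a call, and 4 held more than 1. On chromosome 6, between 30983012 and 31293337, 11 probes of 11 region strands were tested. There 3 reverse-strand regions fell. For chr6:31007184-31007725 (A_30_P01025122) the signal was -0.84, -0.95 and -0.997 in WT, beside -1.50, -1.55 and -1.47 in Pck1-CKO. For chr6:31037606-31037912 (A_30_P01031470) it was -3.37, -3.40 and -3.31, then -4.19, -4.03 and -4.10. For chr6:31078802-31079644 (A_30_P01029853) it was 3.44, 3.50 and 3.57, then 3.11, 3.08 and 3.19. The changes were -0.58 ± 0.059, -0.74 ± 0.059 and -0.37 ± 0.058, with adjusted p = 0.0252, 0.0164 and 0.0395. The other 8 probes of this stretch did not pass. They were the 6 forward-strand probes, with changes from -0.39 to 0.13, and 2 reverse-strand probes farther along, at 0.044 and -0.013.

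A second such locus was on the reverse strand of chromosome 1, where chr1:69555180-69555559 lies inside chr1:69531191-69570566. The probe of the longer interval (A_30_P01027585) had -1.41, -1.38 and -1.29 in WT, set against -2.31, -2.22 and -2.02 in Pck1-CKO. That of the inner interval (A_30_P01024279) had -3.12, -3.11 and -2.92, then -3.81, -4.12 and -3.81. Both fell by a like amount, -0.82 ± 0.089 and -0.86 ± 0.11 (adjusted p = 0.0252 and 0.0295). At chr18:36449530-36489249 the strands went apart. The reverse strand of chr18:36449530-36456800 rose by 0.58 and the forward strand of chr18:36469925-36470507 changed by -1.15, while all 6 other forward-strand probes there had negative changes, from -0.093 to -0.36, and none of them passed.

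A run of 3 short forward-strand intervals on chromosome 1 was picked out after its values were seen. At chr1:23332602-23333197 (A_30_P01026540) the signal was -4.85, -5.31 and -4.87 in WT, beside -6.18, -7.93 and -6.90 in Pck1-CKO, and no Pck1-CKO array had it well above background. WT was at least 1.76-fold higher, and the probe did not pass (adjusted p = 0.0628). At chr1:23340097-23340552 (A_30_P01024981) the change was -1.22 ± 0.23 (adjusted p = 0.0502), with -3.84, -4.30 and -4.23 against -4.93, -5.76 and -5.35. At chr1:23340743-23341144 (A_30_P01025359) it was -1.48 ± 0.19 (adjusted p = 0.0296), with -3.35, -3.59 and -3.30 against -4.62, -5.30 and -4.76. In all 3 the groups were apart and Pck1-CKO 2 was lowest, and 1 of 3 passed. With normexp the last of these changed by -0.43.

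**Figure D5:**
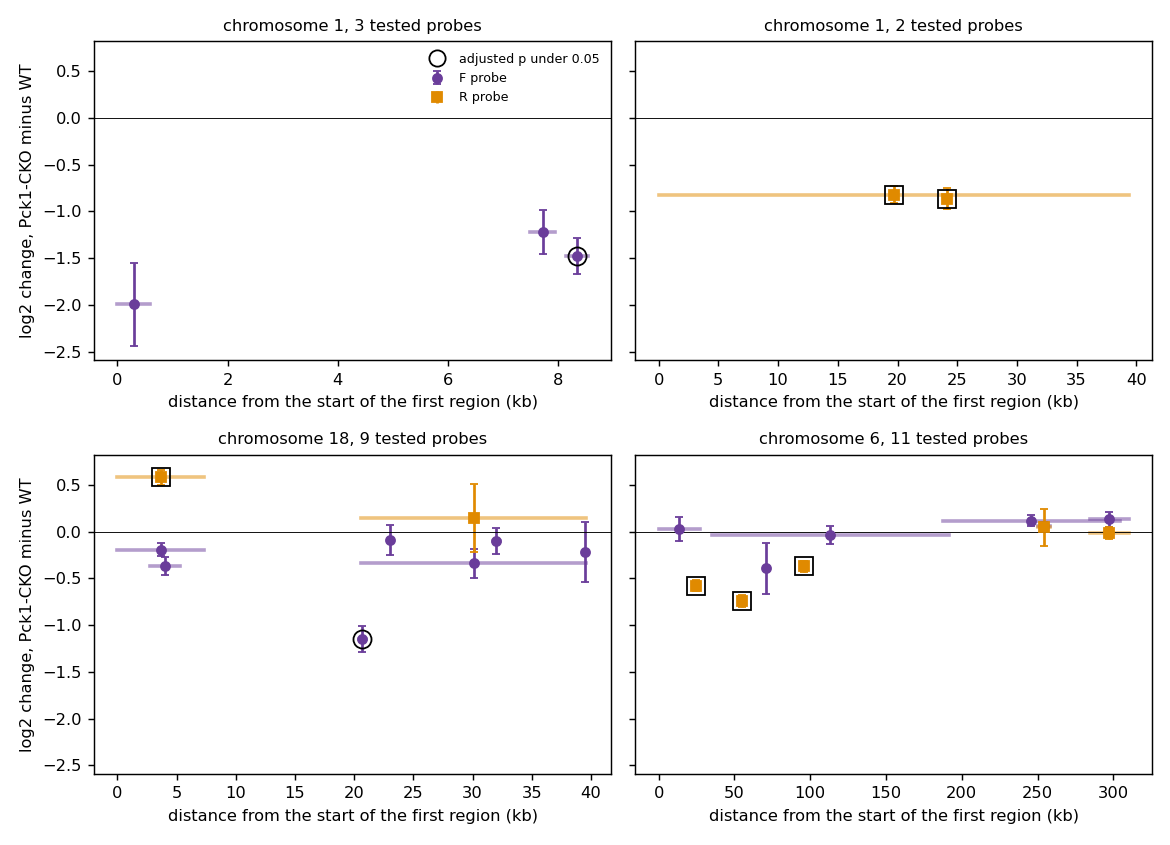
Log2 change (y axis, Pck1-CKO minus WT) of tested probes along 4 loci, by distance in kb from the start of the first region (x axis). Circles are forward-strand and squares reverse-strand probes at the middle of their interval, coloured horizontal lines show the interval, error bars are standard errors of the fit (3 arrays per group), and black outlines mark an adjusted p under 0.05. In the chromosome 6 panel the 3 outlined reverse-strand probes lie below 0 and the forward-strand probes near it, apart from 1 at -0.39.

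Large differences did not always pass. Among members well above background on all arrays, the largest that failed was on the reverse strand of chr11:97457180-97487074 (A_30_P01019507), with -0.12, -0.50 and -2.44 in WT, set against 0.99, 0.99 and -1.44 in Pck1-CKO. Sample 3 of each group was far below the other two, and the change of 1.20 ± 0.90 was within the spread of the groups (adjusted p = 0.427). With the sample number, which is also the slide column, as a block in limma, the adjusted p was 0.0916, still not past the threshold. The forward strand of that interval, which passed, had -2.15, -2.33 and -2.49 in WT, beside -3.50, -3.26 and -3.10 in Pck1-CKO. The other four included the forward-strand chr1:133841295-133841645 given above, the forward strand of chr5:110502650-110522475 (1.17 ± 0.51, adjusted p = 0.204) and that of chr2:77146893-77155643 (1.03 ± 0.48, adjusted p = 0.227). On chr5 and chr2, WT 1 was well above the other WT arrays and overlapped Pck1-CKO. The forward strand of chr18:57104718-57105355 changed by -1.01 ± 0.22 (adjusted p = 0.0605).

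Of the 16 probes on the 5 region strands with the most tested probes, 0 passed in limma. On the forward strand of chr14:22267795-22319045, the probe A_30_P01020306 had 4.96, 5.05 and 5.11 in WT, set against 4.91, 5.06 and 5.10 in Pck1-CKO, a change of -0.016 ± 0.074. On the reverse strand of chr12:55844075-55898175, A_30_P01029490 had 5.39, 5.41 and 5.48 in WT, beside 5.32, 5.38 and 5.41 in Pck1-CKO. Its other tested probes changed by -0.28 and 0.045. On the forward strand of chr12:45415565-45423519 4 probes ran from -0.25 to 0.13. The widest was a dim probe of the reverse strand of chr11:48603904-48611829 (A_30_P01031304, -0.92 ± 0.40, adjusted p = 0.207), while A_30_P01025784 of the same strand had -0.31 ± 0.14.

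Known long noncoding RNAs with a gene symbol offered a comparison. Of 44 genes on a list of such RNAs, 33 had a probe matched through RefSeq accessions, and 28 were tested. Dleu2, a host transcript of microRNAs, rose by 0.47 ± 0.065 (adjusted p = 0.0331), from 0.68, 0.65 and 0.62 in WT to 1.13, 1.22 and 1.01 in Pck1-CKO. The other 27 did not pass, and the median change of the list was 0.027. Among the 1967 tested probes for RefSeq noncoding transcripts, 30 were higher and 68 lower, beside 18 and 99 of the 2624 lincRNA region probes. Over all tested probes 1.73% were higher and 2.56% lower. The median of the RefSeq set was -0.096, close to the -0.11 of the lincRNA region probes, while increases made up more of its calls.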

How the data were processed

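The deposited scanner files hold linear intensity values that the headers credit to version 10.7.1.1 of Agilent's Feature Extraction software, with a processed signal already background-subtracted and detrended, and flags for outlier spots and for signal well above background. The series matrix, as deposited, gives each probe a linear ratio, found here to be the processed signal divided by 1 factor per array, so its scale and direction are known. Its column medians were 0.105, 0.104 and 0.103 for WT arrays against 0.100, 0.098 and 0.099 for Pck1-CKO arrays. Genome build mm9 is per the file headers.

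Outlier spots (46 to 94 per array) were left out, no spot was saturated, log2 values were averaged over the spots of a probe, and the 75th percentile of the array was subtracted. A probe entered the test if 3 or more arrays had it well above background. The test was limma's (version 3.58.1, lmFit and eBayes, R 4.3.3), with both directions counted, no covariates, and p-values adjusted by Benjamini-Hochberg across the 38365 probes. Precision is limited by the number of arrays. Normexp used median signals in place of the planned mean signals, which were not used here.

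The members, lists and the rule for naming regions were chosen with earlier results of these data known. Named were, per direction, the 12 region strands with the largest called change, probes well above background in 1 group only, the 5 region strands with most tested probes and the 5 largest changes not past the threshold. Chromosome 1 and 6 loci, and pairs within a region, were described after their values were seen. Alternatives covered scaling, background correction, source of values, filter, flags, variance model, array weights, a replicate block, unit of the test and left-out arrays. Gene annotation of mm9 and probe sequences were not used here.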

Additional observations from a re-analysis of the deposited data

How the results depend on the processing

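The direction of all 117 called lincRNA region probes held under every alternative run that tested them, while the number of calls did not. Refits of the same values (left-out arrays, filters, variance models, array weights, replicate block) could not change it, as the groups did not overlap. In the following, counts of probes are higher, then lower, beside 18 and 99 (98) as reported. Brackets, where they differ, hold lincRNA region strands with a probe higher in Pck1-CKO, then lincRNA region strands with a probe lower in Pck1-CKO. Quantile normalization gave 26 and 62 (61), median scaling 52 and 74 (50 and 73), no scaling 14 and 37, and cyclic loess, chosen after seeing the data, 26 and 54. Normexp gave 27 and 171. Signal on all 6 arrays as the filter gave 29 and 151, on all arrays of a group 29 and 126 (125), and no filter 0 and 9. Models with a variance trend gave 50 and 202 (48 and 198), with robust fitting 52 and 215 (49 and 211), and array weights 102 and 404 (97 and 397). Calls among the other probes moved too, from 645 and 885 of 35741 to 1335 and 1753 with normexp and 326 and 298 without scaling. They were 2342 and 2272 with a variance trend, 2349 and 2386 with robust fitting and 3550 and 4032 with array weights. The filters, in the order above, gave 987 and 1342 of 33303, 831 and 1134 of 34755, and 38 and 50 of 52150. Series matrix values, kept outlier spots and 1 value per region strand stayed within 1.5 times. The median change, -0.11, became -0.051 with quantile normalization, -0.030 with median scaling, -0.062 without scaling and -0.043 with cyclic loess. With 1 array left out, the count ran from 0 to 16 higher and 0 to 85 lower (0 to 84 region strands). With the replicate block, 0 and 0 lincRNA region probes passed in limma, and 0 and 0 of the other 35741. Of the lincRNA region probes 154 and 618 had an unadjusted p under 0.05, a count not made over all probes. The adjusted p of the 117 was 0.0763 to 0.123. Over all tested probes, deviations from the group mean correlated at 0.045, -0.062 and -0.031 between same-numbered samples. Between samples of different numbers the correlations ran from -0.066 to 0.11. The numbers, which are also the slide columns, were therefore not taken to pair the samples. Changes near 0 turned sign: A_30_P01020306 was 0.059 with median scaling and 0.027 without scaling, A_30_P01022449 0.011 with median scaling and 0.021 with normexp, A_30_P01027489 0.0064 and A_30_P01029490 0.016 with median scaling, and A_30_P01030460 0.014 with normexp. With an array left out, A_30_P01020306 ran from -0.057 to 0.042, A_30_P01021435 from -0.32 to 0.44, A_30_P01022449 from -0.15 to 0.0015 and A_30_P01024054 from -0.0096 to 0.087. The cause of these shifts was not tested. Depth is not defined for arrays, and dim signal close to background limits what 3 arrays per group can show.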

Other observations

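Decreases were more numerous than increases in each length class of region. Among tested probes of regions under 1 kb, 26 of 498 were lower and 2 higher, with a median change of -0.16. For regions of 10 kb to 100 kb it was 42 lower and 6 higher of 1323, with a median of -0.090. The short regions were also dimmer, with a median signal of -3.59 against -2.96. From 1 kb to 10 kb, 26 were lower and 9 higher of 708, and at 100 kb and over 5 and 1 of 95. The median change was -0.11 in both. From the shortest class to the longest, 5.22%, 3.67%, 3.17% and 5.26% were lower. By chromosome, the median change of the members was negative on all 20, from -0.070 on chromosome 16 to -0.16 on chromosome 3. Chromosome 1 held 14 of the 99 decreases among 196 tested probes, and chromosome 15 held none among 114 but 2 increases. Over all tested members 3.77% were lower and 0.686% higher, and over all probes 2.56% and 1.73%. These differences between length classes and chromosomes were not tested.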
